A study of Mus musculus with 2 samples.

Results

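The G2 and mitosis genes are 30 genes whose products take a cell out of G2, through mitosis and into daughter cells. All 30 were found by symbol among the 32285 genes counted in both libraries. The libraries held immune cells from the lymph nodes of wild-type C57BL/6 mice (WT) and of conditional Rpa1 knockouts on the same background (CKO), with 1 library per genotype. Transcript 3′ ends of single cells in droplets were sequenced and counted by unique molecular identifiers (UMIs), so a value is a number of captured RNA molecules. The promoter of the Cre transgene, the deleted exons, the age of the mice and the number of animals behind each library are not given in the sources used here. RPA1 is the large subunit of replication protein A, which covers single-stranded DNA during replication and repair, and the series asks for its role in T cells.

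Cells enter mitosis when cyclin B and the kinase CDK1 become active, and they leave it when the anaphase-promoting complex (APC/C) marks cyclin B and other mitotic proteins for destruction. Transcripts of most of these genes build up from late S phase to mitosis and are low in resting lymphocytes, which make up most of a lymph node. Some members, such as Smc4 and Cenpa, were read here mostly in other cells, as given below. Dividing lymphocytes of a lymph node are recently stimulated T cells and, among B cells, mainly cells of germinal centres. The members were ordered by role. Entry into mitosis was represented by Ccna2, Ccnb1, Ccnb2, Cdk1, Plk1, Aurka and Cks2, and chromosome structure by Mki67, Top2a, Smc2 and Smc4. Centromeres and the chromosomal passenger complex were represented by Birc5, Aurkb, Cenpa, Cenpe and Cenpf, and the spindle checkpoint and APC/C by Bub1, Bub1b, Cdc20 and Ube2c. The spindle group held Tpx2, Nusap1, Hmmr, Tacc3, Kif11, Kif22 and Stmn1, and the cytokinesis group Kif23, Kif20a and Prc1.

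Many G2 and mitosis genes are known targets of the DREAM and MuvB-B-MYB-FOXM1 complexes, which bind cell cycle homology regions, and of NF-Y, which binds CCAAT boxes. Promoter windows of 300 bases, from 250 before to 50 after the start in RefSeq on GRCm38.p6, matched 24 of the 30 members. CCAAT, on either strand, lay in 21 of the 24 (87.5%), against 37.4% of the 32851 promoters of the same length. The usual homology region TTTGAA, or its common variant TTCGAA, on either strand, lay in 18 of the 24 (75%), against 19.2%. Both kinds lay in 18 members (75%), against 7.52% of all promoters, and each kind was counted whether or not it shared bases with the other. In a list of S phase genes 66.7% held CCAAT and 16.7% held a homology region. The 120 bases before the start are printed for 6 members that the results below turn on, 5′ to 3′ on the strand of the gene, with the CCAAT boxes and homology regions of either strand in capitals.
Top2a, chr11:99024190-99024309, minus strand: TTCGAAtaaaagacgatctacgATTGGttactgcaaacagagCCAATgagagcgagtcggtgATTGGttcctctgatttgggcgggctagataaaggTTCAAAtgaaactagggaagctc
Ccnb2, chr9:70421555-70421674, minus strand: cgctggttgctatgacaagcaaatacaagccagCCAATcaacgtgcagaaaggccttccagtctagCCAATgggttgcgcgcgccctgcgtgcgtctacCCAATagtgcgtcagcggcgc
Kif11, chr19:37376262-37376381, plus strand: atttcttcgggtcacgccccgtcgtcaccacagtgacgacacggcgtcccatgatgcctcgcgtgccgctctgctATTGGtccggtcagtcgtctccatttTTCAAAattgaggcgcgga
Mki67, chr7:135716380-135716499, minus strand: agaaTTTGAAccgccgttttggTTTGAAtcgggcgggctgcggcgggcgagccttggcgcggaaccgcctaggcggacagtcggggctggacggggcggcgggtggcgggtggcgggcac
Kif23, chr9:61946800-61946919, minus strand: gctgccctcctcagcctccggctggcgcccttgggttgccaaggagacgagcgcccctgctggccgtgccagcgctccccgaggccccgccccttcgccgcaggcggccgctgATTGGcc
Birc5, chr11:117849117-117849236, plus strand: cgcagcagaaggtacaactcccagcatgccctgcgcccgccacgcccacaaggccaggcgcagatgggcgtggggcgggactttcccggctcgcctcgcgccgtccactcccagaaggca

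In these stretches Top2a and Kif11 held both kinds of motif, Ccnb2 and Kif23 CCAAT alone, Mki67 homology regions alone, and Birc5 neither. A match describes the letters of the window and is not a bound site. In the annotation (GENCODE M21, GRCm38) Top2a lies at chr11:98992943-99024189, Mki67 at chr7:135689784-135716361 and Kif23 at chr9:61915905-61946774, all on the minus strand and protein-coding. The annotation places exons of 9 members over exons of a gene on the opposite strand: Ccna2 (Exosc9), Cdc20 (Elovl1), Kif20a (Cdc23), Kif22 (Gm31749), Nusap1 (Oip5), Plk1 (Gm44985), Prc1 (Rccd1), Tacc3 (Tmem129) and Ube2c (Tnnc2). No source used here gives the strand setting of the counting, and whether reads of such pairs were told apart was not checked.

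Cells were gated on raw UMIs, and none was left out because it was dividing. T cells held at least 2 UMIs of Cd3d, Cd3e and Cd3g together and none of Cd79a. They were split into CD4 (Cd4), CD8 (Cd8b1), regulatory (Foxp3) and Trdc-positive T cells, and other T cells that held none of these markers or a mixture. B cells held at least 2 UMIs of Cd79a and none of Cd3e, and NK cells at least 1 UMI of Ncr1 and none of Cd3e. After filtering, 12463 WT and 13316 CKO cells remained, with medians of 6050 and 4654 UMIs. The T gate held 8189 WT cells (65.7%) and 3555 CKO cells (26.7%), and the B gate 2825 (22.7%) and 7830 (58.8%). The libraries shared 56 cell barcodes. The 9 T cell markers summed to 6692 and 6371 UMIs per 1000000 UMIs (CPM) in the T gate and the 5 B cell markers to 6056 and 6374 CPM in the B gate, WT first here and below. Rpa1 was read at 40.3 and 26.5 CPM (0.658, 0.60 to 0.72) in T cells, at 46.6 and 23.9 CPM (0.512, 0.436 to 0.599) in CD4, 34.9 and 27.2 CPM (0.78, 0.619 to 0.973) in CD8 and 40.4 and 35.8 CPM (0.884, 0.799 to 0.979) in B cells, each followed by the CKO over WT ratio and its interval. With 1 library per genotype there is no replicate and no test: intervals are exact 95% intervals for counting error only, and they take UMIs as independent although few cells gave many UMIs of these genes.

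In T cells the 30 members together were read at 749.9 and 958 CPM (1.28, 1.26 to 1.3), higher in CKO. Smc4 alone gave 51% of these UMIs in WT and 50.4% in CKO. The 26 members without Smc4, Smc2, Cks2 and Stmn1 summed to 251 and 313 CPM (1.25, 1.21 to 1.28). They still hold Cenpa and Kif23, which were read mostly outside the G2/M-high cells defined below. A member was called when it held at least 20 UMIs over both libraries, differed at least 1.5-fold and had an interval that excluded 1. By that rule 11 of 30 members were higher in CKO T cells, against 6.37% of the 13077 genes at that floor, and 1 was lower, against 2.33%. Their median log2 ratio was 0.43, beside 0.079 for all genes. A level summed over a gate cannot tell more dividing cells from more RNA per dividing cell.

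The entry group held 5 of the 11 members called higher in T cells. Plk1, a kinase of mitotic entry and centrosome maturation, had 110 UMIs (1.92 CPM) in WT and 89 UMIs (3.96 CPM) in CKO, a ratio of 2.07 (1.54 to 2.76). Aurka, a centrosomal kinase that activates PLK1, was read at 1.81 and 3.29 CPM (1.82, 1.33 to 2.47). Ccna2, the cyclin of S phase and G2, was read at 3.31 and 5.69 CPM (1.72, 1.36 to 2.16). Each of these was higher in the CKO library. Ccnb2, a B-type cyclin, stood at 4.76 and 7.96 CPM (1.67, 1.38 to 2.03), and Cdk1, the kinase bound by these cyclins, at 3.9 and 6.18 CPM (1.58, 1.27 to 1.97). The other B-type cyclin, Ccnb1, was read at 2.65 and 3.42 CPM (1.29, 0.97 to 1.71), and Cks2, a small CDK-binding protein, at 19.9 and 21.2 CPM (1.07, 0.958 to 1.19). The intervals of Ccnb1 and Cks2 held 1.

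Among the chromosome genes Mki67, which coats mitotic chromosomes and marks dividing cells, was read at 27.6 and 44.3 CPM (1.6, 1.48 to 1.74) in T cells. Top2a, the topoisomerase that untangles sister chromatids, was read at 34.4 and 43.4 CPM (1.26, 1.17 to 1.37). The condensin subunits Smc4 and Smc2 stood at 382 and 482 CPM (1.26, 1.23 to 1.29) and 43.2 and 53.7 CPM (1.24, 1.16 to 1.33). All 4 were higher in CKO, and of them Mki67 alone reached 1.5-fold. In the centromere group Birc5 (survivin), a subunit of the passenger complex, was read at 10.6 and 18.7 CPM (1.77, 1.56 to 2.0), and the kinetochore motor Cenpe at 7.79 and 11.8 CPM (1.51, 1.3 to 1.77). The passenger kinase Aurkb was read at 2.51 and 2.85 CPM (1.13, 0.832 to 1.53) and the kinetochore protein Cenpf at 9.42 and 11.2 CPM (1.18, 1.02 to 1.38), neither called. Cenpa, the histone H3 of centromeres, had an interval that held 1, at 60.2 and 56.8 CPM (0.943, 0.884 to 1.01).

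Of the checkpoint and APC/C genes, the checkpoint kinase Bub1 was called higher in T cells, at 1.39 and 2.27 CPM (1.63, 1.12 to 2.34). Bub1b, another checkpoint kinase, Ube2c, the ubiquitin-conjugating enzyme of the APC/C, and Cdc20, its activator, had ratios of 1.47, 1.38 and 1.16. In the spindle group Tacc3, which stabilises spindle microtubules, was read at 4.69 and 8.5 CPM (1.81, 1.5 to 2.19), and Stmn1, which destabilises microtubules, at 53.8 and 87.4 CPM (1.62, 1.53 to 1.72). Hmmr, Kif11, Nusap1, Tpx2 and Kif22, which build or move along the spindle and chromosomes, were not called, with ratios from 1.0 to 1.46. The cytokinesis group did not share a direction. Kif23, the motor of centralspindlin, which bundles microtubules at the cell midzone, had 941 UMIs (16.4 CPM) in WT and 225 UMIs (10.0 CPM) in CKO, a ratio of 0.611 (0.526 to 0.707). Kif20a, another midzone motor, was read at 2.89 and 2.27 CPM (0.784, 0.562 to 1.08) and the microtubule cross-linker Prc1 at 9.2 and 12.2 CPM (1.33, 1.14 to 1.54). Kif23 was thus the member called lower, while Kif20a and Prc1 were not called.

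**Figure D1:**
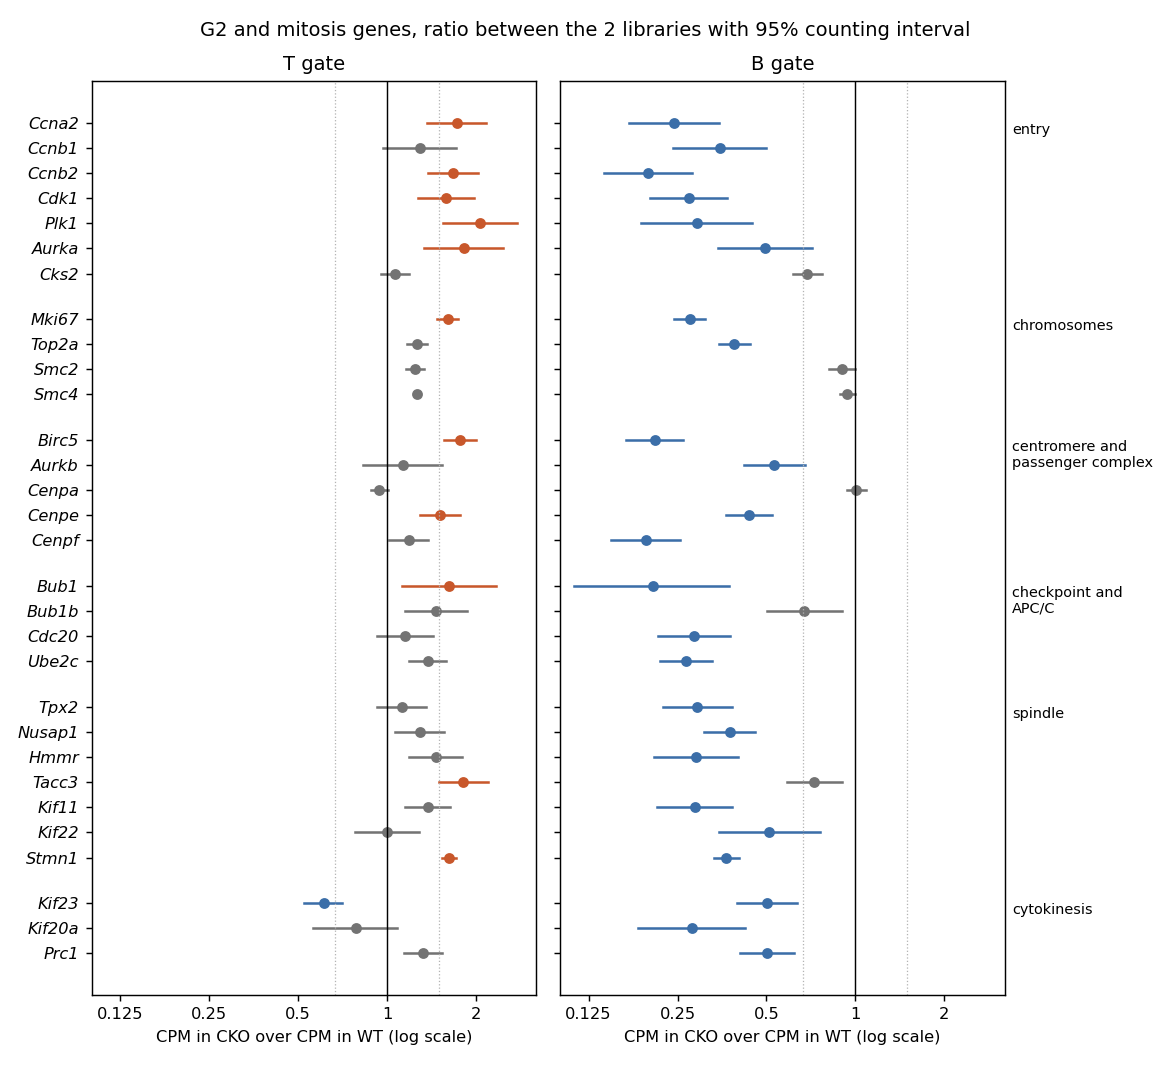
Ratio of CPM in CKO to CPM in WT (log axis) for each of the 30 members in the T gate (left) and the B gate (right), with exact 95% counting intervals as bars, in the order of the role groups. In T cells 11 members were called higher and 1, Kif23, lower, and in B cells 24 were called lower.

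Few cells of high depth held much of this RNA. In WT 31 T cells held 50% of the UMIs of the 26 members, and in CKO 15 did. The cell with the most such UMIs held 3.04% of them in WT and 8.13% in CKO. Without the cell with the most member UMIs in each library, the ratio of the 30 members was 1.25, with 8 members called higher and 1 lower. When every cell was first thinned at random to 2000 UMIs, so that deep cells weighed no more than others, the ratio was 1.21, with 3 called higher and 2 lower and a median log2 ratio of 0.091. The ratios of Top2a, Ccnb2, Cenpf, Aurka and Kif11 were then below 1, whereas that of Plk1 was 2.69. Kif23 had a ratio of 0.58 without the top cells and of 0.512 under thinning.

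Cells that held several members were also counted one by one, by a call that does not show that a cell divides. A cell was called G2/M-high when, after thinning to 2000 UMIs, it held UMIs of at least 4 of the 30 members. Cells under 2000 UMIs were left out, 41 in WT and 24 in CKO in the T gate. In T cells 75 of 8148 WT cells (0.92%, 0.725 to 1.15%) and 48 of 3531 CKO cells (1.36%, 1.0 to 1.8%) were G2/M-high, and the ratio of the shares was 1.48 (1.01 to 2.15). Without thinning the shares were 6.07% and 5.37%, lower in CKO, at median depths of 6368 and 5805 UMIs. After thinning, 40.7% of WT and 34.7% of CKO T cells held no member, and single cells reached up to 21 members in WT and 20 in CKO. G2/M-high T cells were deep, with medians of 16788 and 15349 UMIs, against 6364 and 5787 in the other T cells.

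**Figure D2:**
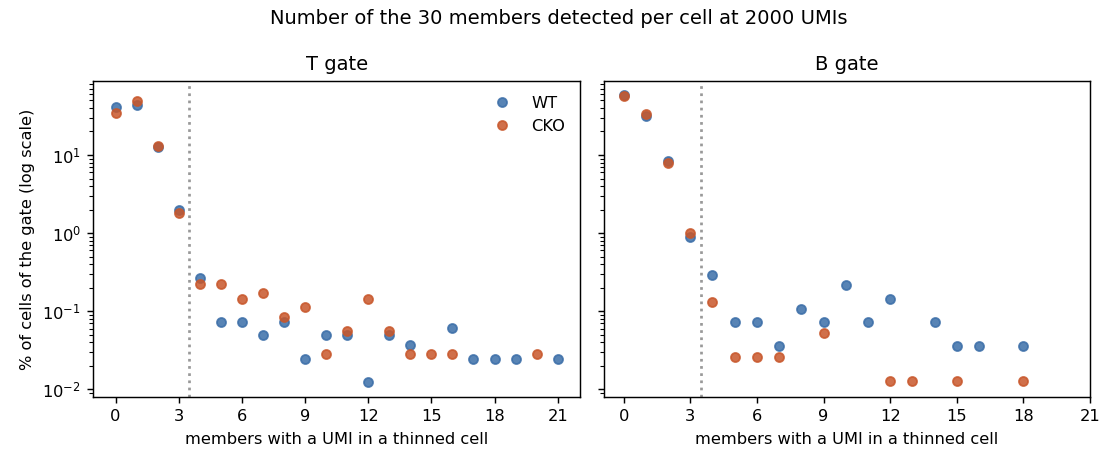
Percentage of cells of the T gate (left) and the B gate (right), on a log axis, against the number of the 30 members with a UMI once each cell was thinned to 2000 UMIs; numbers of members that no cell held have no point. Cells with at least 4 members are the G2/M-high cells, 75 WT and 48 CKO cells in the T gate and 35 and 24 in the B gate.

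Free RNA in droplets can place a UMI in a cell that does not express the gene, so a population that should mostly rest was counted the same way. B cells with UMIs of Ighd and Fcer2a, a follicular pattern, were G2/M-high in 8 of 2255 WT cells (0.355%) and 13 of 6123 CKO cells (0.212%), at median depths of 4072 and 3961 UMIs. Their unthinned shares were 1.98% and 2.57%. Smc4 was read at 111 and 113 CPM in these cells, against 382 and 482 CPM in T cells. A T cell therefore needs fewer further members to be called, and the follicular shares do not measure free RNA in T cells. Mki67 had a UMI in 1.1% of thinned WT and 1.42% of CKO T cells, against 0.399% and 0.392% of follicular B cells. Of the 30 members, 19 had a UMI in a larger share of thinned T cells in CKO and 11 in a smaller one. Their intervals were apart for 3 members: Stmn1 (5.08% and 6.43%), Smc4 (45.1% and 53.6%) and, lower in CKO, Kif23 (2.93% and 1.53%). The level of Kif23 was 21.8 and 15.8 CPM (0.724, 0.531 to 0.966) in CD8, 13.1 and 6.94 CPM (0.528, 0.389 to 0.708) in CD4 and 13.4 and 10.0 CPM (0.747, 0.567 to 0.976) in other T cells. With the T cell subsets weighted by their WT shares, its ratio in T cells was 0.703, short of 1.5-fold. Among the subsets Kif23 was called lower in CD4 cells alone. In Foxp3-positive cells it was called higher, and thinning before summing turned its log2 ratio there to -0.33.

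The T cell subsets did not share a direction. In CD4 cells (2861 WT, 1355 CKO) no member was called higher, against 3.15% of all genes, and 16 were called lower, against 2.97%. Their median log2 ratio was -0.83, beside 0.04 for all genes. Cenpf was read at 10.2 and 3.05 CPM (0.30, 0.189 to 0.457), Ube2c at 8.69 and 2.8 CPM (0.322, 0.199 to 0.501) and Top2a at 39.8 and 21.9 CPM (0.552, 0.466 to 0.65). All 3 cytokinesis genes and 5 of the 7 spindle genes were called lower. Smc4 stood at 414 and 475 CPM (1.15, 1.1 to 1.19), and all 30 members together at 807 and 767 CPM (0.95, 0.922 to 0.978). Smc4 gave 51.3% of the member UMIs in WT and 62% in CKO. G2/M-high cells were 21 of 2849 WT cells (0.737%, 0.457 to 1.12%) and 10 of 1349 CKO cells (0.741%, 0.356 to 1.36%). Without thinning the shares were 4.93% and 3.76%, and over the alternatives the ratio of the shares ran from 0.65 to 1.36. At 2000 UMIs the G2/M-high CD4 cells held a mean of 18 member UMIs in WT and 8.9 in CKO. Thinning every cell before summing left 4 members called lower and turned the summed ratio to 1.03.

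In CD8 cells (2974 WT, 463 CKO) 8 members were called higher, against 5.5% of all genes, and none lower, against 1.71%. Stmn1 was read at 46.3 and 117 CPM (2.53, 2.25 to 2.85), Mki67 at 23.9 and 48.3 CPM (2.02, 1.68 to 2.42), Birc5 at 11.2 and 22 CPM (1.97, 1.49 to 2.57) and Top2a at 34.6 and 63.7 CPM (1.84, 1.57 to 2.15). Nusap1, Aurkb, Prc1 and Kif11 were the other members called higher, and no entry gene was among them. The share of G2/M-high cells was 30 of 2970 WT cells (1.01%, 0.683 to 1.44%) and 10 of 461 CKO cells (2.17%, 1.04 to 3.95%), a ratio of 2.15 (0.937 to 4.51). In CKO 1 CD8 cell held 21.1% of the UMIs of the 26 members. Without the top cell of each library the median log2 ratio went from 0.45 to 0.025, with 7 members called higher and 3 lower. Under thinning 4 members were called higher.

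Other T cells (2033 WT, 1257 CKO) had 23 of 30 members called higher, against 5.34% of all genes, and none lower, against 1.94%. Ccna2 was read there at 1.59 and 7.89 CPM (4.97, 3.02 to 8.49), Ccnb2 at 3.03 and 13.9 CPM (4.59, 3.19 to 6.71) and Birc5 at 8.08 and 26.4 CPM (3.27, 2.59 to 4.15). All 7 entry genes and all 4 checkpoint and APC/C genes were among those called. The share of G2/M-high cells was 16 of 2009 WT cells (0.796%, 0.456 to 1.29%) and 20 of 1248 CKO cells (1.6%, 0.982 to 2.46%), a ratio of 2.01 (0.991 to 4.15). Without thinning the shares were 5.56% and 5.25%, lower in CKO. Of the UMIs of the 26 members, 50% lay in 8 WT and 6 CKO cells. Without the top cell of each library 22 members were called higher and 0 lower, and under thinning 6 higher and 1 lower. In Foxp3-positive cells (236 WT, 199 CKO) 21 of the 28 members at the floor were called higher, against 3.94% of all genes, and 0 lower, against 5.35%, while 8 of 235 WT cells (3.4%, 1.48 to 6.6%) and 4 of 197 CKO cells (2.03%, 0.556 to 5.12%) were G2/M-high. A single CKO cell of 67799 UMIs held 58.9% of the UMIs of the 26 members. Without the top cell of each library 0 members were called higher and 2 lower, and under thinning 0 were called higher. Of Trdc-positive cells 0 of 85 in WT (0 to 4.25%) and 4 of 276 CKO cells (1.45%, 0.396 to 3.67%) were G2/M-high. In these cells 4 of the 10 members at the floor were called higher, against 3.81% of all genes, and 0 lower, against 3.1%. The 26 members had 63 UMIs there in WT and 536 in CKO. A member could thus reach the floor through CKO alone, so these counts depend on the floor. The number called higher was 2 without the top cells and 0 under thinning.

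**Figure D3:**
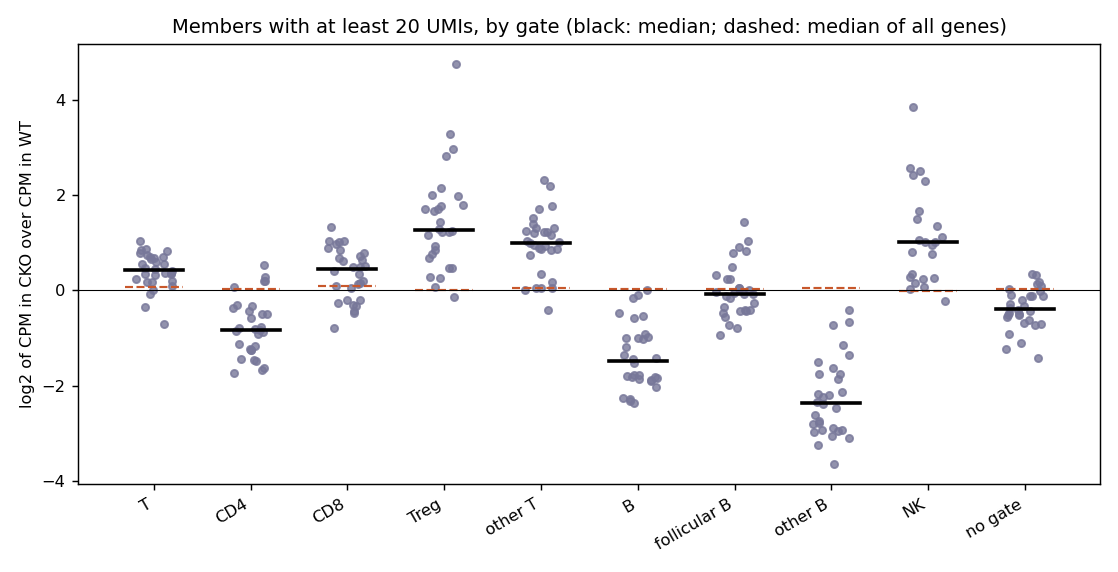
Log2 of CPM in CKO over CPM in WT for members with at least 20 UMIs over both libraries, by gate, with the median of the members and of all genes of the gate as bars. The medians of the members were -0.83 in CD4 and -1.49 in B cells, and 0.43 in T and 0.45 in CD8 cells.

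In B cells the members were lower in CKO. Together they were read at 622 and 371 CPM (0.597, 0.581 to 0.614), and the 26 members at 363 and 175 CPM (0.483, 0.465 to 0.501). None of the 30 was called higher, against 2.05% of 12327 genes, and 24 were called lower, against 3.71%. Their median log2 ratio was -1.49, beside 0.024 for all genes. Cenpa, Bub1b, Cks2, Smc2, Smc4 and Tacc3 were the members not called. G2/M-high cells made up 35 of 2777 WT cells (1.26%, 0.879 to 1.75%) and 24 of 7703 CKO cells (0.312%, 0.20 to 0.463%), a ratio of 0.247 (0.141 to 0.428). The unthinned shares were 3.12% and 2.66%, at median depths of 4054 and 3928 UMIs. Leaving out the top cell of each library gave a summed ratio of 0.59 with 25 members called lower, and thinning gave 0.813 with 14.

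In the entry group of B cells Ccnb2 had 102 UMIs (7.6 CPM) in WT and 55 UMIs (1.51 CPM) in CKO, a ratio of 0.199 (0.141 to 0.279), although the CKO gate held more cells. Ccna2 was read at 6.33 and 1.54 CPM (0.244, 0.171 to 0.345) and Cdk1 at 7.97 and 2.17 CPM (0.273, 0.201 to 0.368). Plk1, Ccnb1 and Aurka had ratios of 0.291, 0.347 and 0.493, so all entry genes but Cks2 (0.687) were called lower. Among the chromosome genes Mki67 stood at 47.8 and 13.1 CPM (0.275, 0.243 to 0.31) and Top2a at 39.3 and 15.3 CPM (0.389, 0.344 to 0.439), while Smc2 and Smc4 had ratios of 0.899 and 0.94. In the centromere group Cenpf was read at 12.3 and 2.39 CPM (0.195, 0.149 to 0.254) and Birc5 at 16.7 and 3.5 CPM (0.21, 0.167 to 0.262). Cenpe and Aurkb had ratios of 0.436 and 0.532, and Cenpa stood at 73.1 and 73.5 CPM (1.01, 0.934 to 1.08), with an interval that held 1. Of the checkpoint genes Bub1 (0.207), Ube2c (0.268) and Cdc20 (0.285) were called lower, and Bub1b had a ratio of 0.67. The spindle genes Kif11, Hmmr, Tpx2, Stmn1, Nusap1 and Kif22 had ratios from 0.286 to 0.511, and Tacc3 one of 0.725. Kif20a, Prc1 and Kif23 had ratios of 0.279, 0.501 and 0.502, so the whole cytokinesis group was called lower.

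B cells were split by the follicular pattern, and the group without it was added after the data were seen. Follicular B cells (2272 WT, 6191 CKO) had summed levels of 340.0 and 346 CPM (1.02, 0.979 to 1.06), with 3 members called higher, against 1.92% of all genes, and 2 lower, against 1.78%. The B cells without this pattern (553 WT, 1639 CKO) had 1599 and 470.3 CPM (0.294, 0.282 to 0.307), and 29 of 30 members were called lower, against 5.89% of all genes, and 0 higher, against 3.72%. Tpx2, which nucleates spindle microtubules, was read there at 37.3 and 2.98 CPM (0.080, 0.0482 to 0.127), Mki67 at 187 and 36 CPM (0.193, 0.166 to 0.223) and Smc4, the member not called, at 145 and 109 CPM (0.748, 0.665 to 0.842). Of these cells 27 of 522 WT cells (5.17%, 3.44 to 7.44%) and 11 of 1580 CKO cells (0.696%, 0.348 to 1.24%) were G2/M-high, a ratio of 0.135 (0.0603 to 0.28). Without the top cell of each library 29 members were called lower there, and under thinning 10. The lower level in B cells was thus read in the cells without the follicular pattern.

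**Figure D4:**
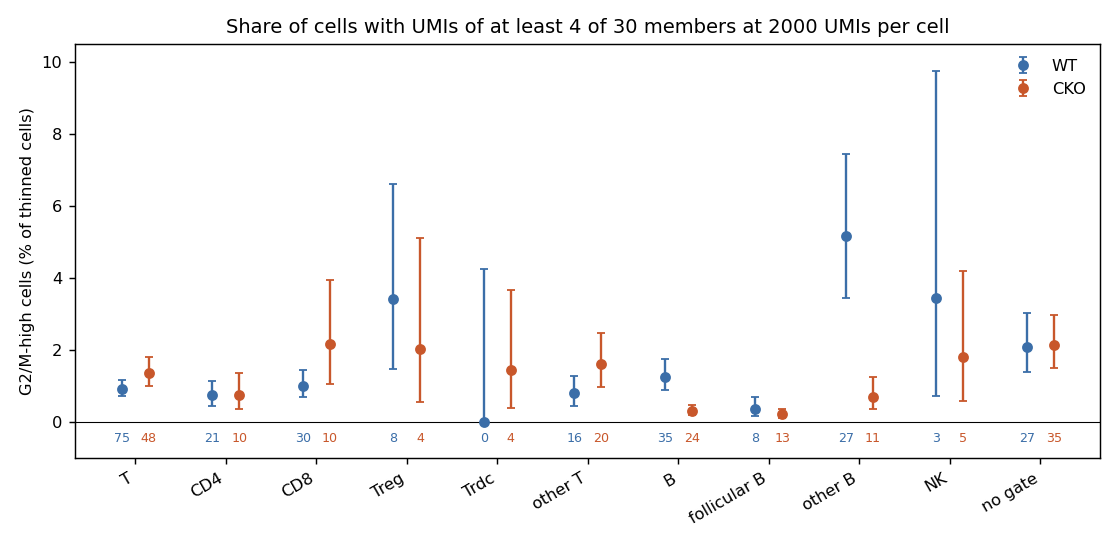
Percentage of thinned cells that were G2/M-high by gate in each library, with exact 95% binomial intervals as bars. The intervals of the libraries were apart in the B gate (1.26% in WT, 0.312% in CKO) and in B cells without the follicular pattern (5.17% and 0.696%).

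The summed level was split into the parts from G2/M-high cells and from all others. In B cells the G2/M-high cells gave 334 and 68.3 CPM of the total of the 30 members and the other cells 289 and 303 CPM. The lower level in B cells lay in the part from G2/M-high cells. In T cells the G2/M-high cells gave 211 and 327 CPM and the other cells 539 and 630.5 CPM, both larger in CKO. For the 26 members the G2/M-high T cells gave 149 and 228 CPM and the other T cells 102 and 85.6 CPM. In CD4 cells the G2/M-high cells gave 171 and 91.6 CPM of the 26 members, and in CD8 cells 149 and 231 CPM.

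Each member was also measured in G2/M-high cells called by the other 29 members alone, so that it did not choose its own cells. In such T cells 23 of 30 intervals of the CKO over WT ratio held 1, 7 lay below 1 and 0 above, with a median ratio of 0.921. Mki67 was read there at 988 and 1028 CPM (1.04, 0.956 to 1.13), Birc5 at 395 and 432 CPM (1.1, 0.961 to 1.25) and Cenpf at 360.0 and 255 CPM (0.707, 0.604 to 0.827). In such B cells 26 intervals held 1 and 4 lay below, with a median ratio of 0.894. Mki67 stood at 992 and 1009.7 CPM (1.02, 0.89 to 1.16) and Stmn1 at 1084 and 569.8 CPM (0.526, 0.445 to 0.619). In the T and B gates the larger differences were thus not read per G2/M-high cell for most members. The T cell subsets were not measured with single members left out. In CD4 cells called by all 30 members, G2/M-high shares were 0.737% and 0.741%. The summed level in these G2/M-high cells was 9723 and 5774 CPM, lower in CKO. It was 8132 and 7918 CPM in CD8, 7833 and 8707 CPM in other T and 5106 and 7528 CPM in Foxp3-positive cells. Entry genes supplied 10.1% and 11.8% of the UMIs of the 26 members in G2/M-high T cells and 11.9% and 11.5% in G2/M-high B cells.

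The members differed in how far they were bound to these cells. In WT T cells over 80% of the UMIs of 13 members came from G2/M-high cells, with 98.8% for Hmmr, a spindle assembly factor, 95% for Nusap1 and 94.4% for Birc5. Smc4 had 3.93% there, Cenpa 13.2%, Kif23 14.5% and Smc2 19.9%. Outside the G2/M-high T cells Kif23 was read at 14.4 and 6.46 CPM (0.449, 0.373 to 0.539), and within them at 96.3 and 92.4 CPM (0.959, 0.723 to 1.27). Its lower level in CKO T cells was thus read outside the G2/M-high cells. In the other T cells 5 members had an interval above 1 and 7 below. Stmn1 was read there at 28.8 and 44.4 CPM (1.54, 1.42 to 1.67), Tacc3 at 2.2 and 3.49 CPM (1.58, 1.17 to 2.13) and Smc4 at 375 and 481 CPM (1.28, 1.25 to 1.31). Birc5 and Smc2 were the other members above 1. Beside Kif23, those below 1 were Top2a, Cenpa, Cks2, Kif20a and Aurkb with ratios of 0.819, 0.899, 0.843, 0.502 and 0.179, and Ccna2 with 15 and 0 UMIs. In B cells over 80% of the UMIs lay in G2/M-high cells for 13 members in WT and 5 in CKO, and the median member had 73.7% and 39.8% there.

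**Figure D5:**
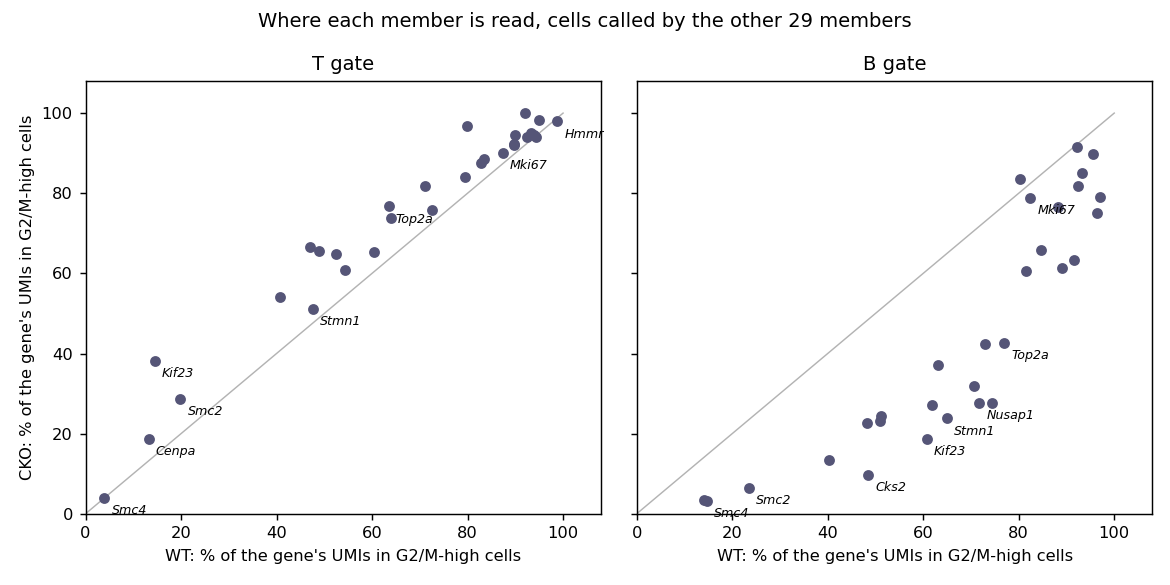
Share of each member's UMIs (percent) that came from G2/M-high cells called by the other 29 members, CKO on the vertical and WT on the horizontal axis, in the T gate (left) and the B gate (right). Hmmr and Smc4 stand at the ends in T cells, with 98.8% and 3.93% in WT, and the median member had 73.7% in WT and 39.8% in CKO B cells.

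Markers of other cell states moved with these cells. In the 35 G2/M-high B cells of WT and the 24 of CKO, the germinal centre markers Mef2b and Rgs13 stood at 154 and 56.4 CPM and 118 and 2.69 CPM, and Bcl6, the germinal centre repressor, at 90.6 and 32.2 CPM. S1pr2 and Fas stood at 94.1 and 26.9 CPM and 73.5 and 13.4 CPM, and Gcsam had 73 and 0 UMIs in these cells and 88 and 0 in all B cells. All 6 were lower in the CKO cells. The G2/M-high B cells differed in make-up, since 8 of the 35 in WT and 13 of the 24 in CKO had the follicular pattern. These follicular cells had medians of 26.5 and 3 UMIs of the 26 members. The part of this make-up in the marker levels was not tested. In the B cells that were not G2/M-high Bcl6 stood at 46.5 and 49 CPM and Mef2b at 6.73 and 3.77 CPM. The 5 plasma cell markers summed to 4286 and 2331 CPM in G2/M-high B cells. G2/M-high B cells of CKO were shallower, with a median of 8281 UMIs against 15403. In G2/M-high T cells the 5 NK markers summed to 325 and 856 CPM and the 4 gamma delta T cell markers to 15.8 and 199 CPM, and over the whole T gate the latter summed to 22.4 and 259 CPM. The part of these markers' cells in the differences of the members was not tested.

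NK cells were few. The 30 members were read at 703 and 1031 CPM (1.47, 1.31 to 1.64) in 88 WT and 279 CKO cells, and 7 of the 23 members at the floor were called higher, against 3.02% of all genes, and 0 lower, against 2.96%. The 26 members had 192 UMIs in WT and 1190 in CKO there, so a member could reach the floor through CKO alone. Of NK cells, 3 of 87 WT cells (3.45%, 0.717 to 9.75%) and 5 of 275 CKO cells (1.82%, 0.593 to 4.19%) were G2/M-high, and the unthinned shares of 9.09% and 13.6% lay in the other direction. In WT 1 NK cell held 57.8% of the UMIs of the 26 members, and B cell markers summed to 374 and 821 CPM in the gate. In its G2/M-high cells they summed to 2652 and 11.2 CPM, with the 78 UMIs of WT in 1 of 3 cells. Under thinning the summed ratio was 1.13 with 0 members called higher, without the top cells 2.13 with 13, and with a stricter gate that left out cells with T or B markers 3.41 with 19. Cells in none of the gates carried T cell markers at 4541 and 3722 CPM and B cell markers at 1916 and 2217 CPM. Of these, 27 of 1291 WT cells (2.09%, 1.38 to 3.03%) and 35 of 1636 CKO cells (2.14%, 1.49 to 2.96%) were G2/M-high, which was 19.4% of all G2/M-high cells of WT and 31.2% of those of CKO. In these cells 0 members were called higher, against 2.97% of all genes, and 8 lower, against 2.69%.

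Other G2 and mitosis genes were counted from a list of 76. In T cells 26 of the 75 at the floor were called higher and 1 lower, with a median log2 ratio of 0.41, against 6.37% and 2.33% of all genes. In B cells none of 72 was called higher and 38 were called lower, with a median of -0.67, against 2.05% and 3.71% of all genes. The highest ratios of the list in T cells were those of Psrc1 at 0.557 and 1.82 CPM (3.27, 2.01 to 5.37) and of the checkpoint kinase Ttk at 0.645 and 1.69 CPM (2.62, 1.62 to 4.24). The lowest were those of Racgap1, the partner of Kif23 in centralspindlin, at 21.1 and 12 CPM (0.568, 0.496 to 0.648), and of securin, Pttg1, at 44.6 and 33.8 CPM (0.756, 0.696 to 0.82). Both subunits of centralspindlin were thus called lower in the T gate as a whole. For Kif23 that call was not shared by CD8, other T and Foxp3-positive cells.

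Among 29 regulators of entry into mitosis, 5 were called higher and 1 lower in T cells, and 1 higher and 3 lower in B cells. Of all genes 6.37% and 2.33% were called in T and 2.05% and 3.71% in B cells, so the lower count in T and the higher count in B cells were near those shares. Cdkn1a, the CDK inhibitor p21, was read at 0.801 and 6.05 CPM (7.55, 5.37 to 10.8) in T cells and at 1.12 and 2.97 CPM (2.66, 1.54 to 4.92) in B cells. Chek1, the kinase that holds cells with unreplicated DNA before mitosis, was read at 2.23 and 6.54 CPM (2.93, 2.3 to 3.75) in T cells and at 3.05 and 1.1 CPM (0.361, 0.227 to 0.572) in B cells. Cdkn1a was higher in CKO in both gates, and Chek1 higher in T and lower in B cells. The CDK inhibitor Cdkn2c (0.628) and Gadd45a (0.696) had the lowest ratios in T cells. Of 26 S phase genes, 13 were called higher and none lower in T cells, and none higher and 11 lower in B cells, beside the same shares of all genes. The replication factors Cdc6 (2.92) and Cdc45 (2.24) had the highest ratios in T cells, and Fen1 (1.18) and Slbp (1.13) the lowest.

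Thinned cells with UMIs of at least 3 of the 26 S phase genes were counted beside the G2/M-high cells. They made up 5.07% of WT and 7.7% of CKO T cells, 5.76% and 12.8% of CD8 cells, and 6.34% and 4.93% of B cells. In CD4 cells the shares were 4.74% (3.99 to 5.58%) and 5.34% (4.2 to 6.67%). In Foxp3-positive cells they were 12.3% (8.42 to 17.2%) and 5.08% (2.46 to 9.14%), lower in CKO. In NK cells they were 18.4% (10.9 to 28.1%) and 11.6% (8.1 to 16%), also lower. The intervals of the libraries were apart in T, CD8 and B cells and overlapped in CD4, Foxp3-positive and NK cells. In T cells 12.6% of the cells counted by S phase genes in WT and 14% in CKO were also G2/M-high. In B cells 27 of 176 (15.3%) in WT and 11 of 380 (2.89%) in CKO were. Rpa1 was read at 71.4 and 61.2 CPM (0.858, 0.61 to 1.2) in G2/M-high T cells, from 104 and 57 UMIs, and at 39.5 and 25 CPM (0.633, 0.575 to 0.696) in the other T cells. The deleted exons are not given, so these counts cannot tell which cells kept an intact Rpa1. The interval of the Rpa1 ratio held 1 in G2/M-high T cells as a whole, and also 0.633, the ratio of the other T cells. In G2/M-high CD4 cells it lay below 1, at 87.2 and 39.2 CPM (0.449, 0.181 to 0.975) from 39 and 8 UMIs, and in G2/M-high CD8 cells Rpa1 was read at 64.8 and 81.7 CPM (1.26, 0.601 to 2.46) from 39 and 12 UMIs.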

How the data were processed

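Single-cell RNA of lymph node immune cells was measured in 1 WT and 1 CKO library with Chromium 3′ v3.1 chemistry, per the labels' protocols. The authors deposited raw UMI counts for each gene in each cell barcode. Per the file headers they were made with Cell Ranger 6.0.2, whereas the submitters' processing notes name Cell Ranger 5.0.0, Seurat 4.0.3 and mm10; counting settings are not given in the sources used here. Of 12769 WT and 13754 CKO barcodes (84813609 and 76200586 UMIs), a cell was kept if it had 500 or more UMIs, 200 or more genes and no more than 10% of UMIs from mitochondrial genes. Doublets were marked with Scrublet in scanpy 1.11.5 (10.4% and 11.4% of kept cells, 10.1% and 11.6% of G2/M-high cells) and left out as an alternative only.

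UMIs were summed per gate and divided by all UMIs of the gate. Intervals at 95% were exact: Poisson for CPM, Clopper-Pearson for shares, and conditional binomial for ratios. UMIs of 1 cell are not independent, so these intervals are too narrow where few cells hold a gene. On simulated data the call rule recovered 91% of 200 genes changed 2-fold among 13138 T cell genes and 92% among 12379 B cell genes, and called 0.649% and 0.96% of unchanged genes. The simulated UMIs of a gene were independent counts without cells. These rates therefore do not apply to members whose UMIs lay in few cells. Of 32285 gene identifiers 32235 were found in GENCODE M21. Some markers, and the results that need them, are not reported here. Genes named were the 30 members, the 2 highest and 2 lowest ratios of each other list in T cells among genes with at least 20 UMIs, Rpa1 and markers. The members and lists were chosen with earlier results of these data known, and B cells without the follicular pattern and cells in no gate were added after the data were seen. Alternatives changed the filters, gates, thinning, scaling, call rule and members, and 2 of them, leaving out the top cell and thinning before summing, were chosen after seeing the data. Python 3.11.15, numpy 2.4.6, scipy 1.17.1, pandas 2.3.3 and matplotlib 3.10.9 were used.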

Additional observations from a re-analysis of the deposited data

Results flagged for a closer look

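The members differed in opposite directions in T and B cells of the same libraries, and this difference between the gates was not tested, with 1 library per genotype. The summed level of the 30 members in CKO over WT was 1.28 in T cells and 0.597 in B cells, and that of the 26 members 1.25 and 0.483. Neither gate was uniform. For the 30 members the ratio was 1.02 (0.979 to 1.06) in follicular B cells and 0.294 in B cells without that pattern. It was 0.95 in CD4 cells and from 1.05 to 1.52 in the other T cell subsets. Of the 30 members 27 had a ratio above 1 in T and below 1 in B cells, and 10 were called in opposite directions. The log2 ratio in T cells less that in B cells was 2.55 for Mki67, 2.82 for Ccna2, 3.07 for Ccnb2, 2.54 for Cdk1, 3.08 for Birc5, 1.79 for Cenpe, 1.88 for Aurka, 2.83 for Plk1, 2.98 for Bub1 and 2.15 for Stmn1. With each cell thinned before summing, the T cell ratios of Ccnb2 and Aurka were 0.998 and 0.803, and 3 members were called higher in T cells and 14 lower in B cells.

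CD8 and CD4 cells also differed in direction, again untested. The summed level of the 30 members in CKO over WT was 1.4 in CD8 and 0.95 in CD4 cells, and that of the 26 members 1.32 and 0.623. There, 17 members had a ratio above 1 in CD8 and below 1 in CD4 cells, and 5 were called in opposite directions. The log2 ratio in CD8 cells less that in CD4 cells was 1.74 for Top2a, 2.47 for Nusap1, 2.27 for Aurkb, 1.52 for Kif11 and 2.08 for Prc1. In CKO 1 CD8 cell held 21.1% and 1 CD4 cell 18% of the UMIs of the 26 members. With each cell thinned before summing, the summed ratio in CD4 cells was 1.03, on the same side of 1 as in CD8 cells, and without the top cell of each library the median log2 ratio in CD8 cells was 0.025.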

How the results depend on the processing

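Of the values that sum up a gate under the alternatives, 297 stayed within the spread allowed, 65 moved beyond it and 3 whose main interval excluded no change turned direction. A further 14 ratios or medians crossed no change from a main value whose interval held it, in the CD4, Treg, Trdc and NK gates. Of the log2 ratios of single members 1307 stayed, 101 moved and 24 turned. The cause was not tested for any of them. Thinning also leaves fewer UMIs, so fewer members can reach 20 UMIs. With marked doublets left out, B cells had a summed ratio of 0.616 and NK cells had a summed ratio of 1.73 and 11 members called higher. With a stricter NK gate, NK cells had a summed ratio of 3.41, 19 members called higher and a median log2 ratio of 3.47. With no thinning of cells, T cells had a G2/M-high share ratio of 0.885 and B cells had a G2/M-high share ratio of 0.853. With totals that leave out ribosomal protein and mitochondrial genes, T cells had a summed ratio of 1.21, CD4 cells had a summed ratio of 0.922 and CD8 cells had a summed ratio of 1.31. Scaled by the median ratio, T cells had a summed ratio of 1.21 and CD8 cells had a summed ratio of 1.3. Over the 26 members, T cells had a summed ratio of 1.25, CD4 cells had a summed ratio of 0.623 and CD8 cells had a summed ratio of 1.32. In addition, Treg cells had a summed ratio of 2.27, Trdc cells had a summed ratio of 2.23 and B cells had a summed ratio of 0.483. In addition, NK cells had a summed ratio of 1.75. With a fold of 2, T cells had 1 member called higher and 0 members called lower and CD8 cells had 4 members called higher. With a floor of 5 CPM, T cells had 7 members called higher, CD4 cells had 8 members called lower and B cells had 15 members called lower. Without the top cell of each library, T cells had a summed ratio of 1.25, CD8 cells had a summed ratio of 1.32, 3 members called lower and a median log2 ratio of 0.025 and Treg cells had a summed ratio of 1.18, 0 members called higher, 2 members called lower and a median log2 ratio of -0.029. In addition, Trdc cells had a summed ratio of 0.927 and 2 members called higher and NK cells had a summed ratio of 2.13, 13 members called higher and a median log2 ratio of 2.43. With each cell thinned before summing, T cells had a summed ratio of 1.21, 3 members called higher, 2 members called lower and a median log2 ratio of 0.091, CD4 cells had a summed ratio of 1.03 and 4 members called lower and CD8 cells had 4 members called higher. In addition, Treg cells had a summed ratio of 1.21, 0 members called higher and a median log2 ratio of 0.26, Trdc cells had a summed ratio of 0.90 and 0 members called higher and B cells had a summed ratio of 0.813, 14 members called lower and a median log2 ratio of -0.75. In addition, NK cells had a summed ratio of 1.13, 0 members called higher, 1 member called lower and a median log2 ratio of 0.095, other T cells had a summed ratio of 1.18, 6 members called higher, 1 member called lower and a median log2 ratio of 0.66 and other B cells had a summed ratio of 0.466, 10 members called lower and a median log2 ratio of -1.63. With G2/M-high cells called at 3 members, B cells had a G2/M-high share ratio of 0.613. With a floor of 1 UMI in each library, NK cells had 1 member called lower. With T subsets at their WT shares, T cells had a summed ratio of 1.25. Thinning turned the log2 ratios of 18 members and gates: in T cells Top2a -0.078, Ccnb2 -0.00308, Cenpf -0.23, Aurka -0.32 and Kif11 -0.41, in CD4 cells Plk1 0.079, in CD8 cells Kif11 -0.70, in Treg cells Mki67 -0.41, Top2a -0.42, Kif11 -0.33, Kif23 -0.33, Tacc3 -0.33 and Prc1 -0.48, in Trdc cells Stmn1 -0.38, in B cells Smc2 0.042, Tacc3 0.27 and Prc1 0.085, in NK cells Cenpf -0.34. Leaving out the top cells turned the log2 ratios of 6 members and gates: in CD8 cells Cenpf -0.36, in Treg cells Top2a -0.59, Birc5 -0.029, Ube2c -0.18, Nusap1 -0.75 and Smc2 -0.083. The share ratio of Trdc-positive cells has no value, since WT held 0 such G2/M-high cells. The number of G2/M-high cells, between 0 and 75 a gate, limits what the shares can show. No paired analysis was possible because each genotype had 1 library.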
